A study of Mus musculus with 6 samples.

Results

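The genes described here are 55 members of the mouse endoplasmic reticulum (ER) folding, degradation and secretory translocation machinery. They were chosen by name from textbook roles, with earlier results of these data known, and read from the 23337 gene symbols of each count file. All 55 symbols were found in all 6 libraries. Whole pancreas of NMRI mice at postnatal day 7 was profiled by polyA-selected RNA sequencing. The 3 control libraries carried Ptf1a cre/+, a Cre recombinase gene at the Ptf1a locus. The 3 mutant libraries carried the same allele with CAG-loxP-STOP-loxP-Prox1-LacZ, a transgene that makes the homeobox factor Prox1 once Cre has removed its stop cassette. Ptf1a is a transcription factor of acinar cells, and the Cre is made wherever its locus is active. Which cells of the pancreas made Prox1 was not measured here. The design text calls the controls pools and the mutants individual pancreata, while the extraction protocol speaks of individual pancreata throughout, so pooling and genotype cannot be told apart. Each p-value below measures the spread between these 3 and 3 libraries, part of which may be technical. In whole tissue, fewer cells of a type and less RNA per cell cannot be told apart.

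The ER is where secreted and membrane proteins are threaded through a channel, folded with the help of chaperones, joined by disulfide bonds and sent on to the Golgi, or pulled back to the cytosol and degraded when folding fails. Sensors in its membrane read the load of unfolded protein: IRE1 (gene Ern1) splices the Xbp1 message, ATF6 (Atf6) is cut to release a transcription factor, and PERK (Eif2ak3) phosphorylates the initiation factor eIF2alpha and slows translation while favouring that of Atf4. Acinar cells of the pancreas make and secrete large amounts of digestive enzymes and are among the cells richest in ER. Transcripts of many of these genes are known to rise through short promoter elements bound by ATF6 and XBP1.

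The promoter sequences of the members are shown first because they set apart the genes that share the best known of these elements. Windows from 250 bases before to 50 bases after the start site were read from RefSeq (GRCm38.p6), which matched 45 of the 55 members with 47 windows. The ER stress response element was searched on both strands as CCAAT, any 9 bases, CCACG. It occurred in 39 of all 32851 windows (0.119%) and in 10 of the 47 member windows (21.3%), those of 10 genes. The 11 matches follow, each written 5′ to 3′ from CCAAT with the fixed letters in capitals. Brackets give the position of each match and how far its most upstream base lies from the RefSeq start site. GENCODE M21 places the start of Hspa5 farther upstream, before its element.

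Hspa5 (chr2:34772025-34772043, 65 bases upstream): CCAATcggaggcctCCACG
Hsp90b1, nearer (chr10:86705533-86705551, 107 bases upstream): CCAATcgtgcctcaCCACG
Hsp90b1, farther (chr10:86705638-86705656, 212 bases upstream): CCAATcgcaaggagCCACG
Calr (chr8:84847075-84847093, 162 bases upstream): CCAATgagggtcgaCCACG
Canx (chr11:50325800-50325818, 145 bases upstream): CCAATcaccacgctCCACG
Dnajc3 (chr14:118937827-118937845, 105 bases upstream): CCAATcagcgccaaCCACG
Creld2 (chr15:88819520-88819538, 126 bases upstream): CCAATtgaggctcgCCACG
Pdia6 (chr12:17266491-17266509, 98 bases upstream): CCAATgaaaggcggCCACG
Ero1lb (chr13:12565682-12565700, 201 bases upstream): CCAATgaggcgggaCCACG
Syvn1 (chr19:6046532-6046550, 44 bases upstream): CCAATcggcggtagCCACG
Derl3 (chr10:75893242-75893260, 156 bases upstream): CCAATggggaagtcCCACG

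The elements of Hsp90b1 (nearer), Calr, Creld2, Ero1lb and Derl3 run opposite to their gene, and the other 6 run with it. Other elements were matched by other members: Dnajb11 and Herpud1 held ATTGG, any base, CCACG (12 of all windows, 0.0365%), and Sec24d and Kdelr3 held TGACGTGG (222 of all windows, 0.676%), whose opposite strand shares the letters CCACG with the elements above. The C/EBP-ATF response element, TGATG, any base, AA, any base, occurred in Herpud1 and Kdelr1, 4.26% of member windows against 3.95% of all windows. A match describes letters in a window and is no measure of binding. The 2 members that passed the test between genotypes, Derl3 and Eif2ak3, differ here, and the 250 bases before their start sites are given for that reason. Capitals mark the match in Derl3 (chr10:75893148-75893397, plus strand), which reads as the reverse complement of the element listed above because it runs opposite to the gene. No match to any of the 4 motifs was found in Eif2ak3 (chr6:70844265-70844514, plus strand), so its bases are all in lower case.
Derl3: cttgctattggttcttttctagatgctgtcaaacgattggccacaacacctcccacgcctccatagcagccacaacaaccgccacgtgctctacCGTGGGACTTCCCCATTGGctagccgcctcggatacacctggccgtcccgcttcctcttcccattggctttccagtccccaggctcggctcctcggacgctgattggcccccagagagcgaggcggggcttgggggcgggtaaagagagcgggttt
Eif2ak3: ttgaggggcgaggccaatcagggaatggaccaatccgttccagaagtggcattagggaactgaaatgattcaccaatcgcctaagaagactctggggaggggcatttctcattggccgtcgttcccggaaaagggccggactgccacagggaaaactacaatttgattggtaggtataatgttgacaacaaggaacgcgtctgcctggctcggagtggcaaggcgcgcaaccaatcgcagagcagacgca

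Libraries held between 7304727 and 10773223 counts. Values are CPM, counts per 1000000 counts of a library, scaled with TMM factors, which set libraries level on the genes that differ least. Prox1 lay at 10.8, 7.84 and 9.13 CPM in the controls, against 25.5, 31.3 and 30.9 CPM in the mutants, a rise of 1.67 ± 0.15 on the log2 scale (SE, n = 3 per group, edgeR adjusted p = 0.000239), which matches the labels. Of 13017 genes tested, 268 (2.06%) passed an adjusted p of 0.05, 71 higher (0.545%) and 197 lower (1.51%) in mutants. The summed level of 18 acinar markers was 409357 to 458716 CPM in the controls, against 346827 to 406672 CPM in the mutants, with 2 of the 17 tested lower and none higher. No label used here gives the sex of the animals. Xist, an RNA made in female cells, was high in a control library and in no mutant, so by this RNA sex was not balanced. Its part in the differences between the groups was not tested. Control replicate 1 stood apart in Xist, at 1069 CPM against at most 0.442 CPM in the other 5 libraries. That library was also the highest control in 42 of the 54 tested members, where it was the highest control in 39.8% of all genes, and mutant replicate 2 was the lowest mutant in 38 of 54, against 37% of all genes. Members tended to share the spread between libraries, and they are not replicates of each other.

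Across the 55 genes, 1 rose (Eif2ak3) and 1 fell (Derl3) in the mutants, and the other 52 tested did not pass the threshold. Sec61g was too low to be tested. The 2 calls are 3.70% of the members tested, beside 2.06% of all genes. At an unadjusted p under 0.05 there were 6 members (11.1%), beside 1662 of all genes (12.8%). The median log2 difference of the 54 was −0.06 and that of all genes 0.00, with a range from −1.16 to 0.84. The median size of the difference, sign aside, was 0.106, against 0.150 over all genes. For 44 of the 54 the 95% confidence interval lay within 1.5-fold either way, as it did for 56% of all genes, and for 51 it lay within 2-fold. Control and mutant values did not overlap for 2 members higher in mutants (Eif2ak3 and Ero1l) and 6 lower (Xbp1, Creb3l1, Derl3, Edem1, Edem2 and Sec61b), where 9.13% and 9.86% of all genes were apart in those directions. Scaling by library totals alone moved the median of all genes to 0.17 and that of the members to 0.11, so signs of small differences depend on the scaling.

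**Figure D1:**
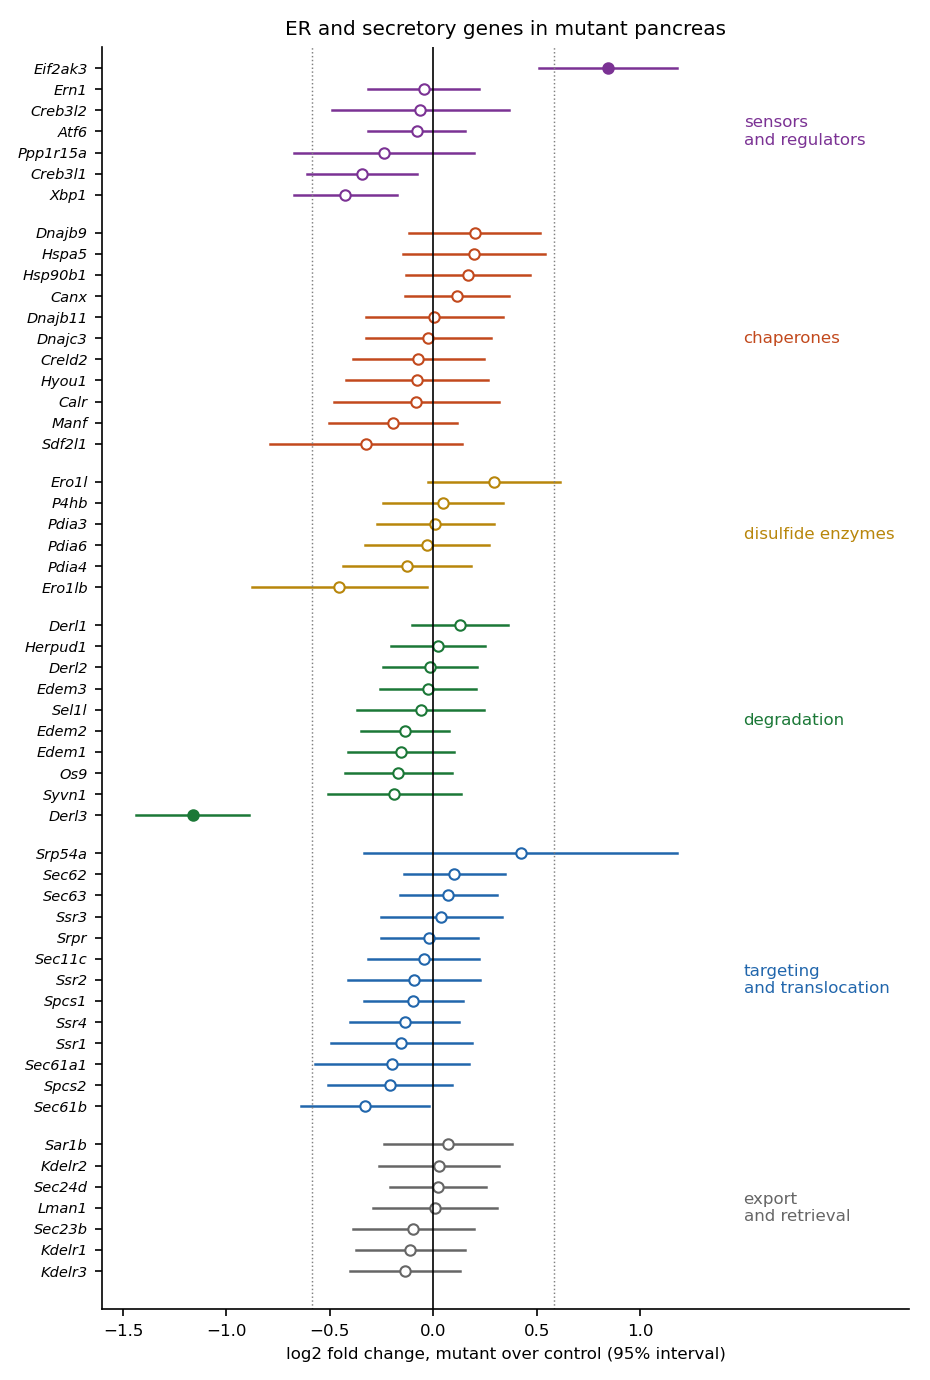
Log2 difference (mutant minus control) of each of the 54 tested members, grouped by role, with its 95% confidence interval. Derl3 at −1.16 and Eif2ak3 at 0.84 are the calls, and most of the other intervals cross 0.

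Among the 7 sensors and regulators, Eif2ak3 rose (14.3%, beside 0.545% of all genes), none fell (beside 1.51%), and 6 did not pass the test. At an unadjusted p under 0.05 there were 3 (42.9%), beside 12.8% of all genes. Eif2ak3 (ENSMUSG00000031668.14, chr6:70844515-70905245, plus strand, GRCm38) encodes PERK. It lay at 83.0, 101 and 85.5 CPM in the controls, against 171, 127 and 186 CPM in the mutants. Every mutant library was above every control, with mutant replicate 2 nearest to them. The mean went from 90.0 ± 9.92 to 161 ± 30.9 CPM (SD, n = 3 per group), a 1.79-fold rise, 0.84 ± 0.15 on the log2 scale with a 95% interval from 0.51 to 1.18 (edgeR adjusted p = 0.0176). Leaving out control replicate 1, 2 or 3 or mutant replicate 1 or 3 gave adjusted p-values of 0.0733, 0.0549, 0.0911, 0.0862 and 0.0897, which miss the threshold, with the log2 difference between 0.73 and 0.94. The call held in the other 9 of 14 alternatives, the 3 other scalings among them. An antisense gene overlaps 8.05% of its exon bases, and no source used here states how strand was counted.

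Xbp1 (ENSMUSG00000020484.18, chr11:5520659-5525893, plus strand) encodes the transcription factor whose message IRE1 splices. Its values were 383, 399 and 409.7 CPM in the controls, against 278, 290.1 and 321 CPM in the mutants, with no overlap. The mean was 397 ± 13.2 CPM in the controls, against 296 ± 22.2 CPM in the mutants, a log2 difference of −0.42 ± 0.11 with an interval from −0.67 to −0.18, which did not pass the threshold (edgeR adjusted p = 0.0998). It passed in 1 of 14 alternatives, DESeq2 (adjusted p = 0.00101). Gene counts join spliced and unspliced Xbp1 messages, so splicing was not measured. The difference in Xbp1 runs opposite to that in Eif2ak3, and the other membrane sensors did not pass the test. Ern1 lay at 20.6 ± 0.349 and 19.95 ± 2.52 CPM, and Atf6 at 79.2 ± 7.22 and 75.0 ± 5.36 CPM (SD, n = 3 each, controls then mutants).

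Creb3l1 and Creb3l2 encode ER-anchored transcription factors cut like ATF6. Creb3l1 ranged from 17.9 to 19.5 CPM in controls and from 13.98 to 16.4 CPM in mutants, apart but not past the threshold (log2 −0.34, edgeR adjusted p = 0.240). Creb3l2 ranged from 12.6 to 18.3 CPM and from 12.9 to 19.4 CPM. Ppp1r15a, whose product GADD34 directs the dephosphorylation of eIF2alpha and so opposes PERK, lay at 9.02, 14.4 and 9.03 CPM in the controls, against 9.05, 8.82 and 9.68 CPM in the mutants. Control replicate 2 stood above the other 5 libraries, and the interval ran from −0.68 to 0.20 on the log2 scale.

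**Figure D2:**
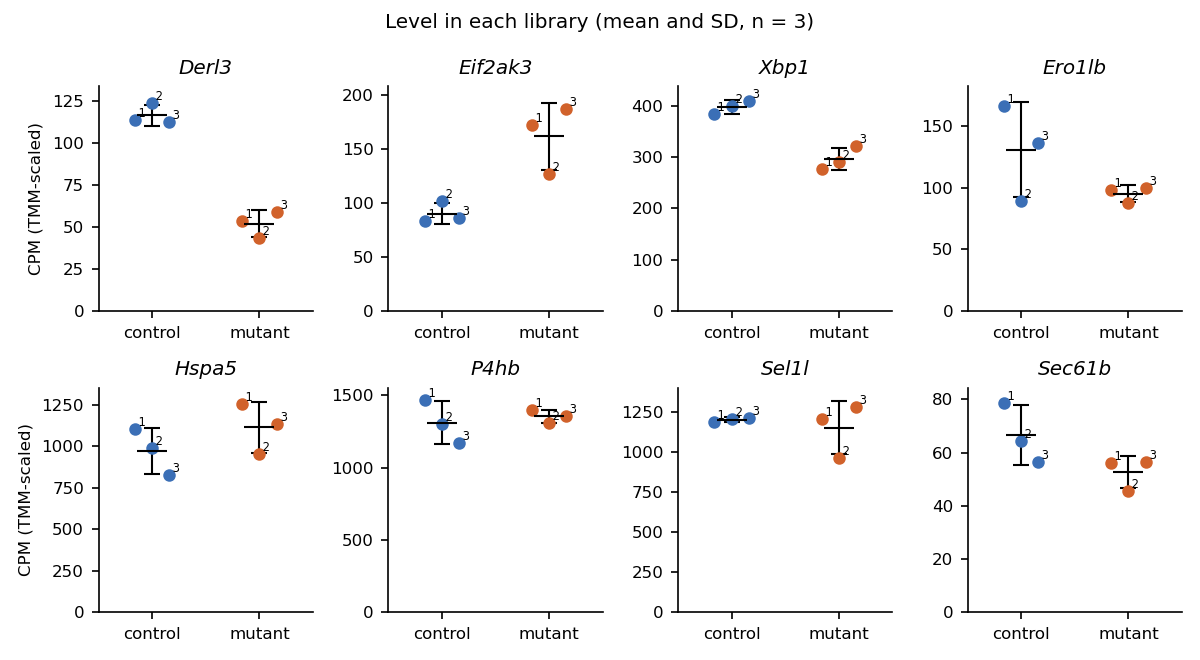
CPM in each library, numbered by replicate, of 8 members, with the mean and SD of 3 libraries per group. Derl3, Eif2ak3 and Xbp1 do not overlap between groups, while Hspa5, P4hb and Sel1l do.

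None of the 11 chaperones and their cofactors passed the test in either direction. At an unadjusted p under 0.05 the count was also 0, beside 12.8% of all genes, and DESeq2 called none. Their median log2 difference was −0.02, with 10 of 11 intervals within 1.5-fold. Hspa5 encodes BiP, the Hsp70 chaperone of the ER and the usual marker of ER stress. It lay at 1105, 988 and 831 CPM in the controls, against 1257, 953 and 1137 CPM in the mutants. The groups overlapped, with the highest control above 1 mutant, and the log2 difference was 0.20 ± 0.15 with an interval from −0.15 to 0.54 (edgeR adjusted p = 0.678).

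Hsp90b1 (GRP94), which completes the folding of selected clients, lay at 602 ± 72.6 and 677 ± 63.4 CPM. Canx and Calr encode the lectins calnexin and calreticulin, which hold glycoproteins while they fold. Canx lay at 317 ± 10.4 and 343 ± 28.7 CPM, and Calr at 341 ± 22.98 and 322 ± 83.4 CPM, where mutant replicate 2 at 232 CPM widened the spread. Hyou1, a nucleotide exchange factor for BiP, lay at 141 ± 8.83 and 133 ± 30.0 CPM. Each of these pairs is controls then mutants (SD, n = 3), and each pair of groups overlapped.

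The largest fitted differences of the role were those of Sdf2l1 and Dnajb9, both cofactors of BiP. Sdf2l1 lay at 74.7, 50.5 and 39.4 CPM in the controls, against 50.5, 37.4 and 42.2 CPM in the mutants (log2 −0.33, edgeR adjusted p = 0.583). The control libraries alone spanned most of that range. Dnajb9, which encodes ERdj4, lay at 28.3, 20.8 and 21.1 CPM and at 26.4, 23.9 and 29.6 CPM (log2 0.20, edgeR adjusted p = 0.637). The BiP partners Dnajb11 and Dnajc3 had log2 differences of 0.00 and −0.02, and Creld2 and Manf, small secreted or ER-resident stress-inducible proteins, −0.07 and −0.20. The 10 genes with the ER stress response element ran from −1.16 (Derl3) to 0.20 (Hspa5), with a median of −0.05, and the 34 tested members whose windows lack it also had a median of −0.05.

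None of the 6 disulfide enzymes passed the test in edgeR or DESeq2, and Ero1lb was the 1 member of the role with an unadjusted p under 0.05 (16.7%, beside 12.8% of all genes). P4hb, the protein disulfide isomerase PDI, was the highest member per kilobase of exon, at 459 CPM per kb in the controls, against 473 in the mutants. It lay at 1465, 1301 and 1169 CPM in the controls, against 1399, 1307 and 1356 CPM in the mutants, inside the control range throughout, with an interval from −0.24 to 0.34 on the log2 scale. The related isomerases Pdia3, Pdia4 and Pdia6 had log2 differences of 0.01, −0.13 and −0.03.

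The oxidases Ero1l and Ero1lb recharge PDI, and their fitted differences had opposite signs. Ero1lb, the form known for its high level in the pancreas, lay at 167, 89.7 and 137 CPM in the controls, against 98.3, 88.0 and 100.1 CPM in the mutants. Control replicate 2 sat inside the mutant range, and the log2 difference of −0.46 ± 0.19 did not pass the threshold (edgeR adjusted p = 0.345). Ero1l lay at 16.8, 16.5 and 12.4 CPM and at 17.3, 18.8 and 19.6 CPM, apart but not past it (log2 0.29, edgeR adjusted p = 0.442). The log2 ratio of Ero1lb to Ero1l was 3.07 ± 0.547 in the controls, against 2.36 ± 0.139 in the mutants, a difference of −0.71 (exact permutation test, two-sided, p = 0.2, adjusted p = 0.28). Coding transcripts of Ero1lb share 13.9% to 32.3% of their 50-base stretches with other genes, which makes its counts less certain.

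Of the 10 degradation genes 1 fell (10%, beside 1.51% of all genes), none rose (beside 0.545%), and 9 did not pass the test. The count at an unadjusted p under 0.05 was also 1 (10%), beside 12.8% of all genes. Derl3 (ENSMUSG00000009092.5, chr10:75893413-75895941, plus strand) encodes Derlin-3, 1 of the derlins, membrane proteins that take part in moving misfolded proteins from the ER to the cytosol. It lay at 114, 124 and 112 CPM in the controls, against 53.7, 43.3 and 58.8 CPM in the mutants. All mutant libraries were far below all controls, and neither group held a library that stood away from the others. The mean went from 117 ± 6.11 to 51.9 ± 7.91 CPM (SD, n = 3 per group), 44.6% of the control level, and fell by 1.16 ± 0.12 on the log2 scale with a 95% interval from −1.44 to −0.89 (edgeR adjusted p = 0.000708). It passed in all 14 alternatives run, with adjusted p-values up to 0.00948 and a log2 difference between −1.26 and −1.003. None of its 50-base stretches occurs in another gene, and no antisense exon overlaps it.

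Neither of the other derlins passed the test. Derl1 lay at 60.4 ± 4.26 CPM in the controls, against 65.9 ± 6.14 CPM in the mutants, and Derl2 at 39.4 ± 2.89 and 38.9 ± 2.40 CPM. A ratio within a library does not depend on the scaling, and 7 pairs of related genes were compared in this way. The log2 ratio of Derl3 to Derl1 was 0.798, 1.08 and 0.965 in the controls, against −0.438, −0.565 and −0.050 in the mutants, above 0 in every control and below 0 in every mutant. The difference of −1.30 had p = 0.1, the smallest that 3 against 3 can give (exact permutation test, two-sided, adjusted p = 0.28). The ratio of Derl3 to Derl2 was 1.46, 1.602 and 1.64 in the controls, against 0.550, 0.168 and 0.505 in the mutants, a difference of −1.16 with the same p. Per kilobase of exon, Derl3 was the highest derlin in both genotypes, at 58.5 CPM per kb in the controls, against 26.1 in the mutants, with Derl1 at 18.1 and 19.8.

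**Figure D3:**
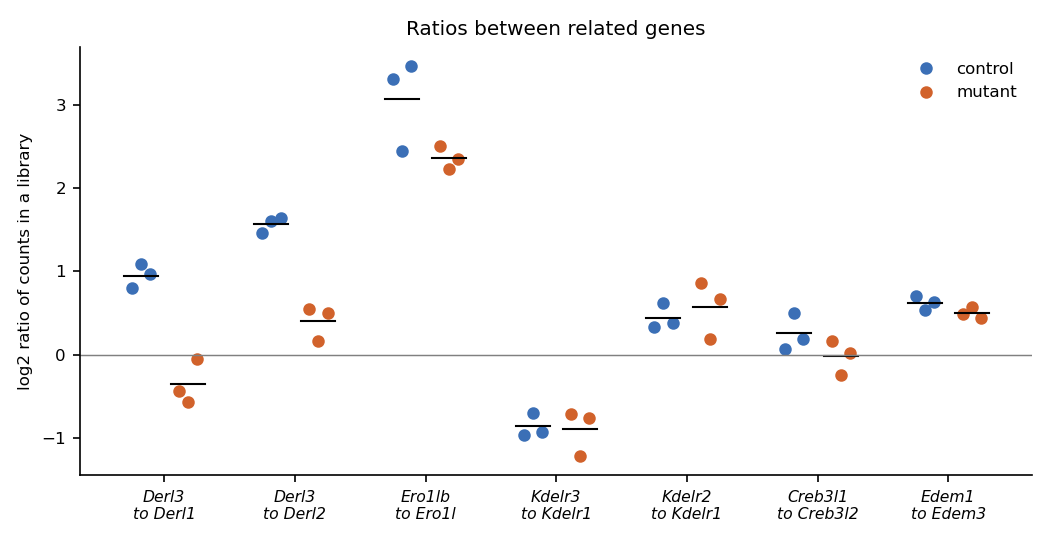
Log2 ratio of counts within each library for 7 pairs of related members, controls and mutants. The Derl3 ratios are the ones whose groups do not overlap, and the other 5 pairs overlap.

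Sel1l and Syvn1 encode the scaffold and the ubiquitin ligase (HRD1) of the main degradation complex. Sel1l was abundant, at 1183, 1206 and 1209.6 CPM in the controls, against 1206, 963 and 1279.8 CPM in the mutants, and mutant replicate 2 alone lay below the controls (log2 −0.06). Syvn1 lay at 41.7, 31.8 and 28.6 CPM and at 32.7, 28.7 and 27.7 CPM (log2 −0.19, edgeR adjusted p = 0.668). Herpud1, a partner of this complex, had a log2 difference of 0.02, and Os9, a lectin that brings it glycoproteins, −0.17. The EDEM proteins trim mannose from glycoproteins bound for degradation. Edem1 ranged from 192 to 240.0 CPM in controls and from 186 to 192 CPM in mutants, and Edem2 from 136 to 151 and from 127 to 132 CPM, both apart by a margin smaller than the control SD. Edem3 overlapped, at a log2 difference of −0.03.

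None of the 13 tested genes of targeting and translocation passed the test in edgeR or DESeq2, 1 had an unadjusted p under 0.05 (7.69%, beside 12.8% of all genes), and 11 had intervals within 1.5-fold. Sec61a1, Sec61b and Sec61g form the channel through which new proteins enter the ER. Sec61a1 lay at 327 ± 10.1 CPM in the controls, against 285 ± 68.8 CPM in the mutants, a spread that mutant replicate 2 at 212 CPM widened. Sec61b lay at 78.8, 64.3 and 56.5 CPM in the controls, against 56.1, 45.6 and 56.4 CPM in the mutants, groups that are apart by under 1 CPM (log2 −0.33, unadjusted p = 0.0379, edgeR adjusted p = 0.347). Sec61g was near the limit of detection, from 0.384 to 0.696 CPM. Its coding transcripts share 20.5% to 77.6% of their 50-base stretches with other genes, and those of Sec61b 41% to 50.4%, so their counted levels are uncertain.

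Srp54a encodes the subunit of the signal recognition particle that binds the signal sequence. It lay at 2.11, 1.66 and 2.21 CPM in the controls, against 3.52, 1.62 and 2.80 CPM in the mutants (log2 0.42 ± 0.34, edgeR adjusted p = 0.685). Its coding transcripts share 75.2% to 100% of their stretches with Srp54b and Srp54c, which were listed at 0 counts in all 6 libraries, so its level is uncertain. Srpr, the receptor of the particle, lay at 181 ± 12.9 and 178 ± 10.2 CPM. The 4 translocon-associated genes Ssr1 to Ssr4 had log2 differences of −0.16, −0.09, 0.04 and −0.14. Sec62 and Sec63, which serve entry after translation, had 0.10 and 0.07. The signal peptidase genes Spcs1, Spcs2 and Sec11c had −0.10, −0.21 and −0.05.

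None of the 7 genes of export and retrieval passed the test, none had an unadjusted p under 0.05 (beside 12.8% of all genes), DESeq2 called none, and all 7 intervals lay within 1.5-fold. Sec23b, Sec24d and Sar1b build the COPII coat of vesicles that leave the ER, and had log2 differences of −0.10, 0.02 and 0.07. Lman1, a cargo receptor for glycoproteins, had 0.01. The KDEL receptors return escaped chaperones from the Golgi. Kdelr3 lay at 48.1, 46.8 and 40.0 CPM in the controls, against 41.5, 35.6 and 45.2 CPM in the mutants (log2 −0.14, edgeR adjusted p = 0.716). Kdelr1 lay at 93.5, 76.2 and 75.9 CPM and at 68.1, 82.5 and 76.7 CPM (log2 −0.11, edgeR adjusted p = 0.778). Kdelr2 differed by 0.03 on the log2 scale. The ratios of Kdelr3 and Kdelr2 to Kdelr1 differed by −0.03 and 0.13 (exact permutation test, two-sided, p = 0.8 and p = 0.6, adjusted p = 0.8 and 0.7).

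**Figure D4:**
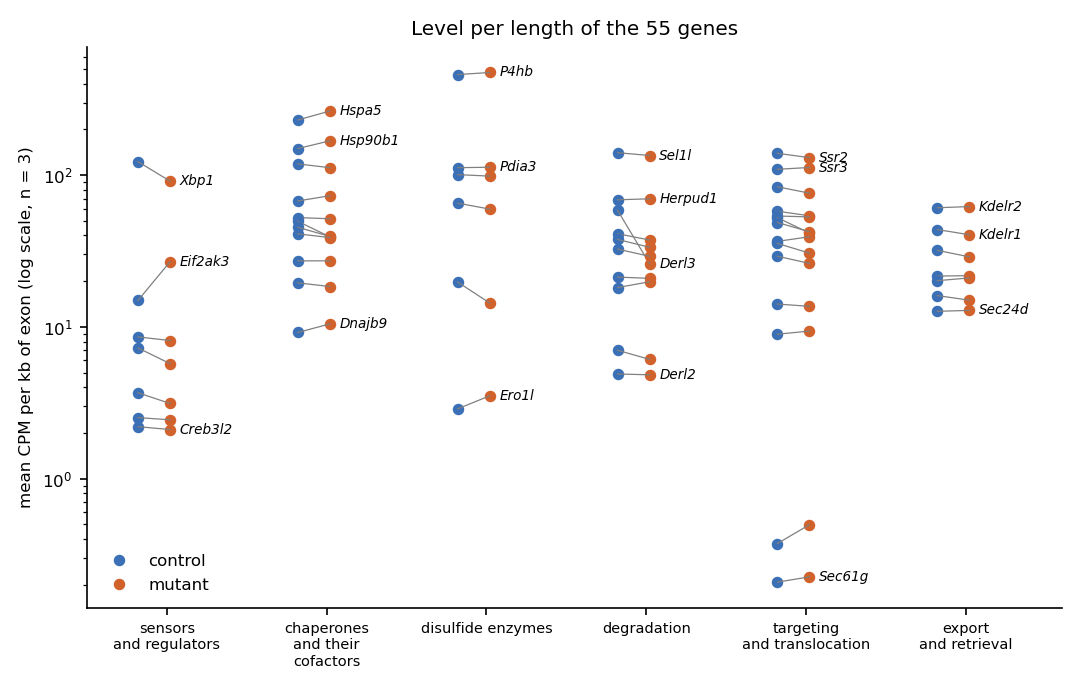
CPM per kilobase of exon of the members (log axis), mean of 3 libraries per group. P4hb, Hspa5 and Hsp90b1 lead, Derl3 and Eif2ak3 show the widest gaps between groups among members above 1 CPM per kb, and Sec61g at 0.208 in controls is lowest.

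Levels differed widely between members of a role. Per kilobase of exon in controls, Hspa5 lay at 230.4 CPM per kb, Hsp90b1 at 149, Sel1l at 140.2, Ssr2 at 139 and Xbp1 at 122, while the sensors Eif2ak3, Ern1 and Creb3l2 lay at 14.9, 2.52 and 2.20. In mutants Xbp1 lay at 91.2 CPM per kb and Eif2ak3 at 26.8. Summed over all 55 members, the level was 12284, 11164 and 10324 CPM in the controls, against 11818, 9954 and 11479 CPM in the mutants, 98.5% of the control mean with overlapping groups, and 110.6% when scaled by library totals alone. By role, the mutants' summed CPM was 93.5% of controls for sensors and regulators, 106% for chaperones, 99.6% for disulfide enzymes, 92.7% for degradation, 94.6% for targeting and translocation and 98.1% for export and retrieval. With library totals alone these became 105%, 119%, 112%, 104%, 106% and 110.2%, so all but the chaperones changed side of the control level with the scaling.

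Digestive enzymes are the main cargo of this machinery. The summed level of 33 digestive enzyme genes was 670865 ± 22974 CPM in the controls, against 577711 ± 42520 CPM in the mutants (SD, n = 3), 86.1% of controls, or 96.6% with library totals alone. The counts of the 55 members per 1000 digestive enzyme counts, which no scaling changes, were 17.6, 16.8 and 15.9 in the controls, against 20.4, 18.6 and 18.5 in the mutants. The groups were apart, at 16.8 ± 0.896 and 19.2 ± 1.02, and the value was given no test. With TMM scaling the members' sum was 98.5% of controls and the enzymes' sum 86.1%, beside a median log2 difference of 0.00 over all genes. The ratio was not computed for other sets of genes, so it is not shown to be particular to the members.

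**Figure D5:**
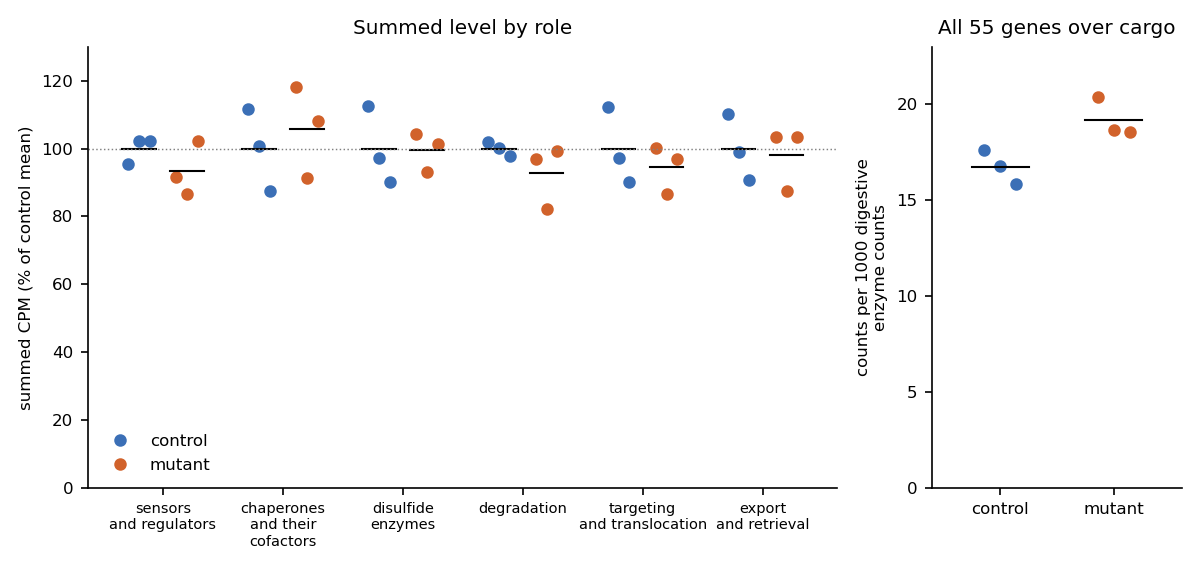
Left, summed CPM of each role in each library as a percentage of the control mean; right, counts of all 55 members per 1000 digestive enzyme counts. The roles overlap between genotypes, while the 3 mutants exceed the 3 controls in the ratio to digestive enzymes. Summed CPM in mutants was 86.1% of controls for these enzymes and 98.5% for the members.

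A further 225 genes of the same pathways were in the files, of which 215 could be tested. Of these 2 rose (0.930%) and 2 fell (0.930%), beside 0.545% and 1.51% of all genes, with a median log2 difference of −0.01. The arm downstream of PERK held both rises, among 22 genes with a median of 0.04. Of these, 8 (36.4%) had an unadjusted p under 0.05, beside 12.8% of all genes, a count that takes either direction. In this arm 14 genes were fitted above 0 and 8 below it. Control and mutant values were apart for 6 genes higher and 3 lower in mutants, beside 9.13% and 9.86% of all genes. This list too was chosen with earlier results known. Fgf21, a secreted hormone induced through ATF4, lay at 0.902, 0.663 and 0.577 CPM in the controls, against 15.7, 15.0 and 11.1 CPM in the mutants, a 19.7-fold rise (edgeR adjusted p = 2.3e-05). Nupr1, a stress-induced nuclear protein, lay at 272, 314 and 233 CPM and at 531, 533 and 561 CPM, a 1.98-fold rise (edgeR adjusted p = 0.00381). Both passed in all 14 alternatives run. Atf4 itself lay at 185 ± 11.7 CPM in the controls, against 185 ± 5.81 CPM in the mutants.

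Named after their values were seen, Ddit3 (CHOP), Atf3 and Trib3, other known targets of this arm, had log2 differences of 1.17, 1.25 and 1.03. They did not pass the threshold (edgeR adjusted p = 0.0718, 0.0551 and 0.0998), all at group means under 10 CPM. Ddit3 and Atf3 each passed in 6 of 14 alternatives and Trib3 in 1. Asns and Chac1, named in the same way, lay at −0.31 and 0.28 (edgeR adjusted p = 0.267 and 0.771).

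Among 42 tested genes of lumenal folding, 1 fell (2.38%, beside 1.51% of all genes) and none rose. At an unadjusted p under 0.05 there were 9 (21.4%), beside 12.8% of all genes. Erp27, a member of the PDI family without a catalytic site, lay at 545, 473 and 450.2 CPM in the controls, against 299.7, 342 and 318 CPM in the mutants (log2 −0.61 ± 0.12, edgeR adjusted p = 0.0316). It lost the call in 7 of 14 alternatives, with adjusted p-values up to 0.173. Pdia2, the pancreatic PDI, was named after its values were seen. It lay at 2043, 1843 and 1836 CPM and at 1329, 1142 and 1366 CPM, apart and just outside the threshold (log2 −0.58, edgeR adjusted p = 0.0586). Among 50 tested genes of ER to Golgi transport 1 fell (2.00%, beside 1.51% of all genes), and 3 (6%) had an unadjusted p under 0.05. The gene that fell was Tmed6, of the p24 family of cargo adaptors. It lay at 345, 317 and 305 CPM and at 197, 232 and 203 CPM (log2 −0.61 ± 0.11, edgeR adjusted p = 0.0216). The call was lost in 6 of 14 alternatives with adjusted p-values up to 0.135.

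The remaining lists, the 32 other tested genes of degradation among them, held no call. Members with the smallest p were Krtcap2, of the oligosaccharyltransferase, among 29 genes of N-glycan transfer (log2 −0.32, edgeR adjusted p = 0.163), Tmem93, also called Emc6, a subunit of the ER membrane insertase, among 31 of targeting (−0.49, adjusted p = 0.112), and Creb3 among 9 partners of the sensors (0.36, adjusted p = 0.352). At an unadjusted p under 0.05 the lists of N-glycan transfer, degradation, targeting and partners of the sensors held 5, 1, 1 and 2 genes, which are 17.2%, 3.12%, 3.23% and 22.2% of those tested, beside 12.8% of all genes. DESeq2 called none of them.

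Markers of other cells were read beside the 2 calls. The 10 markers of lymphocytes and plasma cells summed to 3.76 to 20.3 CPM in the controls, against 2.86 to 61.3 CPM in the mutants, with none of the 5 tested past the threshold. The highest value was that of mutant replicate 2 alone, and the other mutants summed to 2.86 and 3.49 CPM. Endocrine markers summed to 3279 to 5309 and 3338 to 3647 CPM, duct markers to 771 to 864 and 546 to 757 CPM, and fibroblast markers to 3870 to 5876 and 4263 to 5577 CPM, with no call among them. Macrophage markers summed to 249 to 297 and 299.9 to 413 CPM. Of the 10 tested, 2 were higher (C1qc and Mrc1) and 1 lower (C1qa), beside 0.545% and 1.51% of all genes. Adipocyte markers summed to 72.2 to 139.6 and 39.4 to 57.3 CPM, with 1 of the 5 tested lower, beside the same 1.51%. Erythroid markers summed to 174 to 675 and 108 to 242 CPM, with Hba-a1 and Hba-a2 at 0 in all libraries. Endothelial markers summed to 225 to 240.3 and 228 to 244 CPM. Of the acinar markers, Ptf1a lay at 17.7 to 21.1 CPM in the controls, against 14.4 to 15.4 CPM in the mutants, Bhlha15, which encodes the acinar secretory factor Mist1, at 144 to 179.5 and 119.7 to 145 CPM, and the 2 called lower were Cel and Gp2. The part of these differences in the values of Derl3 and Eif2ak3 was not tested.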

How the data were processed

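RNA of whole pancreas was sequenced in 6 libraries, 3 control and 3 mutant. The deposited files hold whole-number read counts per gene symbol, not normalized, made by the authors. The submitters' processing notes name cutadapt 1.13, STAR, HTSeq 0.6.1p1, DESeq2 and the mm10 build, with no role or order. Neither the gene annotation nor the strand setting was given in the sources used here. Counts of 13017 genes that passed edgeR's filterByExpr were scaled with TMM and tested with edgeR 4.0.16 (glmQLFit, glmQLFTest, R 4.3.3, limma 3.58.1), with Benjamini-Hochberg adjustment over all of them and a threshold of 0.05. Sec61g did not pass the filter. Standard errors are the log2 difference divided by the square root of F. Exon lengths and shared sequence come from GENCODE M21 (GRCm38). Paralog ratios used a pseudocount of 0.5 counts.

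The members and lists were chosen with earlier results of these data known. Named were Prox1, any member, the values by library of called members and of the 2 with the largest difference per role, and of each other list the called genes (at most 4) or the gene with the smallest p. For 1 list that gene is not reported here. Alternatives changed the scaling, the test (DESeq2 1.42.0), the dispersion, the filter, a replicate block and the libraries left out. On simulated counts of 12866 genes for this comparison, the test recovered 70% of 100 changes of 1 and 97% of 100 changes of 2 on the log2 scale, with 12 false calls among 179. The changed genes were drawn only from those above a minimum mean count, and smaller changes were not simulated. These rates do not cover genes with low counts or small differences. Depth ranged from 7304727 to 10773223 counts.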

Additional observations from a re-analysis of the deposited data

How the results depend on the processing

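Prox1 and Derl3 kept their direction and their call in all 14 alternatives. The number of genes called, 268, ran from 125 to 301 when 1 library was left out, lowest without control replicate 2, with 140, 139 and 178 without control replicate 3, mutant replicate 1 and mutant replicate 3. The 2 members called ran from 1 to 2, Eif2ak3 being lost without control replicate 1, 2 or 3 or mutant replicate 1 or 3. Library totals alone raised the share of higher calls from 26.5% to 59.4%, and totals without digestive enzymes to 43.4%. The 4 other pathway genes called became 7 with DESeq2, with robust dispersion and with no filter, and 2 to 5 with 1 library left out. With the replicate block, 241 genes, 2 members and 2 other pathway genes were called. The correlations of same-numbered libraries' deviations were 0.0798, 0.0289 and −0.0708, within the range of the other pairs, −0.109 to 0.111. They show no pairing by number, and 3 libraries per group are too few to exclude it. The difference in the ratio of Kdelr3 to Kdelr1, −0.03, was 0.05 without control replicate 2 and 0.12 without mutant replicate 2, in a range from −0.12 to 0.12 over the libraries left out, and that of Kdelr2 to Kdelr1, 0.13, was −0.0157 without mutant replicate 1, in a range up to 0.32. Library totals alone gave summed levels of 110.6% of controls for all members, 105% for sensors, 112% for disulfide enzymes, 104% for degradation, 106% for targeting and 110.2% for export. The causes were not tested. Counts under 10 CPM and 3 libraries per group limit precision, and protein features were not analysed here.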
